A study of Mus musculus with 16 samples.

Results

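The interleukin-1 (IL-1) family cytokines and receptors examined here were 10 genes, taken by symbol from the 55492 genes listed in the table of left ventricular RNA sequencing, and all 10 passed the filter on low values. They are the ligands *Il1a*, *Il1b*, *Il18* and *Il33*, the antagonist *Il1rn*, the signalling receptor *Il1r1* with its accessory chain *Il1rap*, the decoy receptor *Il1r2*, and the receptors *Il1rl1* (for IL-33) and *Il18r1* (for IL-18). Libraries were made from left ventricles of male C57BL/6 mice aged 8 to 12 weeks. PKM2-/- mice lack exon 10 of *Pkm* in all tissues, after germline recombination by CMV-Cre and loss of the Cre transgene by breeding, and PKM2fl/fl mice carry the unrecombined floxed allele as controls. Each genotype gave 2 libraries at baseline without surgery, 3 libraries 3 days after sham surgery and 3 libraries 3 days after myocardial infarction (MI) by ligation of the left anterior descending coronary artery. The question was how this cytokine system differs with infarction and with loss of PKM2.

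IL-1 alpha and IL-1 beta bind IL-1R1, which recruits IL-1RAP and signals through MyD88 and IRAK kinases to NF-kB. IL-1RA, the product of *Il1rn*, occupies the receptor without signalling, and IL-1R2 binds ligand but lacks the signalling domain. IL-1 beta and IL-18 are made as precursors that are cleaved after inflammasome assembly, and in the infarcted heart these cytokines are known as early signals for leukocyte recruitment.

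The 16 libraries held 20623769 to 71855101 reads on genes. Of these reads, 15.84% to 45.95% lay on *mt-Rnr1*, *mt-Rnr2*, *Lars2* and *CT010467.1*. At baseline the share was 17.25% and 22.13% in PKM2fl/fl and 43.8% and 39.63% in PKM2-/- libraries. After MI it was 43.67%, 19.82% and 44.54% in PKM2fl/fl and 15.98%, 30.84% and 34.18% in PKM2-/- libraries. Total reads, used below as an alternative scaling, include this share. Its part in the results with that scaling was not tested. Values below are normalized counts, that is, reads divided by the DESeq2 size factor of the library, and reads per gene and library could be recovered from them. Fold changes are log2 differences of group means of log2(value + 1) from limma with Benjamini-Hochberg adjustment over 20576 genes, and a gene was called at an adjusted p under 0.05 and a change of at least 2-fold. *Pkm*, counted over both isoforms, was at 7779 to 12076 in PKM2fl/fl and 10120 to 16113 in PKM2-/- libraries, so a count per gene does not check the loss of exon 10. Cardiomyocyte markers summed to 1034720 to 1376990 in baseline and sham libraries. In MI libraries the sums were 546218, 528020 and 252457 in PKM2fl/fl and 316527, 262317 and 240626 in PKM2-/-. Of the 7 markers, 0 were called between genotypes after MI (0.156% of all genes were called higher and 0.258% lower). Their log2 differences were -0.80 to -0.05, with a median of -0.48, and 2 had an unadjusted p under 0.05 (17% of all genes). The part of this in the members' genotype differences after MI was not tested. After MI, summed markers of neutrophils were 1333 to 2348 in PKM2fl/fl and 3785 to 4917 in PKM2-/- libraries, and those of monocytes and macrophages were 19162 to 30636 and 23562 to 28527. With total reads as the scaling in place of size factors, the median of all genes moved to -0.17 in MI against sham in PKM2fl/fl, 0.52 in PKM2-/- and 0.36 between genotypes after MI, and genes called higher went from 2553 of 4832 to 2055 of 4918, from 2974 of 5923 to 5573 of 7109 and from 32 of 85 to 98 of 118.

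In GRCm38.p6, the assembly of mm10 to which the reads were aligned, the receptor genes lie together. *Il1r2* (chr1:40084692-40125230), *Il1r1* (chr1:40222480-40316201), *Il1rl1* (chr1:40404864-40465418) and *Il18r1* (chr1:40465552-40500854) share the forward strand of chromosome 1 with *Il1rl2*, the IL-36 receptor gene, and *Il18rap*, the accessory chain of the IL-18 receptor, within 467 kb. *Il1a* (chr2:129299609-129310186) and *Il1b* (chr2:129364569-129371164) are 54.4 kb apart on the reverse strand. *Il1rn* is at chr2:24336860-24351491, *Il18* at chr9:50554700-50581841, *Il1rap* at chr16:26581509-26730128 and *Il33* at chr19:29925113-29960718. *Il18* is 9.07 Mb from the targeted gene *Pkm* on the same chromosome, and whether this bears on its values was not tested.

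The 250 bases before an annotated start site are shown for 4 genes with unlike patterns: *Il1a*, which was not called in any comparison, its neighbour *Il1b*, the antagonist *Il1rn*, and *Il1r2*, the member called between genotypes after MI. Sequences are from RefSeq on GRCm38.p6, 5′ to 3′ on the gene's strand, and capitals mark matches on either strand to GGNNTTNCC (an NF-kB pattern), TGANTCA (AP-1), TTNCNNAA (C/EBP) or TATAAA.
Il1a, chr2:129309973-129310222, reverse strand: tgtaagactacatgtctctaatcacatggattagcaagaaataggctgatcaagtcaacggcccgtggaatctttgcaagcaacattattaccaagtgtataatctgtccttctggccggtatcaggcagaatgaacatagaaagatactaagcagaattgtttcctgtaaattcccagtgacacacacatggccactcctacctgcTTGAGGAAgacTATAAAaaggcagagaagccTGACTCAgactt
Il1b, chr2:129371140-129371389, reverse strand: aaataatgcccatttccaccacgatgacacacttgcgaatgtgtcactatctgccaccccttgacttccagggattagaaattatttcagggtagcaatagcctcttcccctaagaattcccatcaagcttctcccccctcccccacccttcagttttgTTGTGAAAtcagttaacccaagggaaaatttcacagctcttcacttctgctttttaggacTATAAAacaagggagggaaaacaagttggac
Il1rn, chr2:24336610-24336859, forward strand: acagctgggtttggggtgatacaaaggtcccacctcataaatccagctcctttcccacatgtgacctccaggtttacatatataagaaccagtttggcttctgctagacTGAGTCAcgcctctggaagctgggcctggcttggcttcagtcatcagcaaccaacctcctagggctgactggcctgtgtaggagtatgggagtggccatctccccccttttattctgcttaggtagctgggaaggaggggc
Il1r2, chr1:40085843-40086092, forward strand: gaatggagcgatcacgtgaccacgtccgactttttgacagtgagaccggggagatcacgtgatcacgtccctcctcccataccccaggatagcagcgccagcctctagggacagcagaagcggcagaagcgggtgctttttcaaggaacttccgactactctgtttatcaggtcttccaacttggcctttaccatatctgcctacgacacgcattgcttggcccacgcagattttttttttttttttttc
*Il1a* and *Il1b* both had TATAAA close to the start site, at -32 and -31, and TTNCNNAA further upstream, at -43 and -91. *Il1a* also had TGANTCA at -12. The *Il1rn* window had TGANTCA at -141, and the *Il1r2* window had no match to any of the 4 patterns. In windows of 300 bases, with 50 after the start site, GGNNTTNCC was in 16% of all 32851 windows and in 5 of the 17 windows of the members. These belong to 4 members, *Il1rn* at downstream start sites, *Il1rap*, *Il1rl1* and *Il18r1*. GGNNTTNCC is a looser form of the pattern first searched, which had matched in fewer windows and, among the members, in those of *Il1rn* only. TGANTCA was in 7.81% of all windows and in 2 of the 17 (2 members). TTNCNNAA was in 40.7% and in 10 of the 17 (6 members), and TATAAA in 13.6% and in 6 of the 17 (5 members). A match is a description of letters and not of binding.

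Infarction was accompanied by higher levels of most ligands, the antagonist and most receptors in both genotypes. Against sham surgery, 7 of the 10 members were called higher in PKM2fl/fl (12.4% of all genes tested) and 8 in PKM2-/- (14.5%), and 0 were called lower (11.1% and 14.3% of all genes). The median log2 fold change of the members was 1.40 in PKM2fl/fl and 1.89 in PKM2-/-, against -0.0025 and 0.010 over all genes tested. In each genotype, 8 members had every MI library above every sham library, as did 30% and 31.7% of all genes, and 0 had every MI library below every sham library (29% and 30.6% of all genes). In a bulk sample, more cells of a type and more RNA per cell cannot be told apart.

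*Il1b*, the inflammasome-dependent ligand, was at 6.28 and 23.9 in PKM2fl/fl baseline libraries, 110, 180 and 24.5 after sham surgery and 478, 189 and 358 after MI. In PKM2-/- libraries it was at 28.0 and 11.0, then 74.0, 82.3 and 132, then 489, 333 and 400. Its lowest MI value in each genotype was above its highest sham value, although in PKM2fl/fl the margin was narrow. The log2 fold change was 2.00 (SE 0.62, adjusted p = 0.0137) in PKM2fl/fl and 2.10 (SE 0.62, adjusted p = 0.00875) in PKM2-/-. The PKM2fl/fl call was lost without sham replicate 3, at 1.17 (adjusted p = 0.0790), and without MI replicate 1, at 1.70 (adjusted p = 0.0574).

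*Il1a*, whose product is active without inflammasome cleavage, was low in all libraries. Its values were 14.1 and 17.9, then 11.2, 28.7 and 21.1, then 24.7, 19.3 and 40.2 in PKM2fl/fl, and 21.0 and 12.8, then 11.3, 7.84 and 35.6, then 16.2, 25.4 and 33.2 in PKM2-/-, in the order baseline, sham and MI. MI and sham libraries overlapped in both genotypes, on 6 to 44 reads per library. MI differed from sham by 0.48 (SE 0.51, adjusted p = 0.460) in PKM2fl/fl and 0.66 (SE 0.51, adjusted p = 0.288) in PKM2-/-, and the latter became 1.26 (adjusted p = 0.0348) without PKM2-/- sham replicate 3.

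*Il18*, the other inflammasome-dependent ligand, was at 38.5 and 30.5 at baseline, 62.3, 45.2 and 36.8 after sham surgery and 182, 101 and 163 after MI in PKM2fl/fl. The PKM2-/- series was 14.0 and 16.5, then 56.3, 31.3 and 42.1, then 106, 177 and 206. MI and sham libraries were separate in both genotypes, with log2 fold changes of 1.60 (SE 0.31, adjusted p = 0.000561) and 1.88 (SE 0.31, adjusted p = 0.000107).

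*Il33*, an alarmin held in the nucleus, was at 71.4 and 83.6, then 173, 271 and 108, then 598, 448 and 713 in PKM2fl/fl. In PKM2-/- it was at 157 and 126, then 191, 205 and 375, then 830, 910 and 879. Its log2 fold change with MI was 1.74 (SE 0.29, adjusted p = 0.000166) in PKM2fl/fl and 1.83 (SE 0.29, adjusted p = 7.76e-05) in PKM2-/-. *Il1rl1*, which encodes its receptor ST2, was nearly level: the 16 libraries ranged from 35.4 to 77.9, and the MI against sham differences were -0.17 (SE 0.27, adjusted p = 0.612) in PKM2fl/fl and 0.057 (SE 0.27, adjusted p = 0.871) in PKM2-/-, either of which changed sign without 1 library. *Il33* thus separated MI from sham libraries in both genotypes, and *Il1rl1* in neither.

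The antagonist *Il1rn* had the largest estimated fold change with MI of the 10 members in both genotypes. In PKM2-/- that of *Il1r2* was close to it, at 3.48 (SE 0.48), so the order of these genes there is uncertain. PKM2fl/fl libraries had 1.57 and 4.64 at baseline, 16.5, 41.1 and 4.90 after sham surgery and 172, 81.4 and 213 after MI. PKM2-/- libraries had 9.32 and 11.0, then 27.3, 13.1 and 25.9, then 272, 291 and 325. The log2 fold changes were 3.15 (SE 0.57, adjusted p = 0.000299) and 3.75 (SE 0.57, adjusted p = 4.78e-05). Baseline values rested on 2 to 8 reads, so their ratios are imprecise.

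*Il1r1*, the signalling receptor, was the member with the most reads, 412 to 6145 per library. It was at 779 and 979, then 1468, 1241 and 1000, then 2688, 2331 and 3548 in PKM2fl/fl, and at 795 and 755, then 1434, 1924 and 1606, then 4643, 3903 and 3956 in PKM2-/-. The rise with MI was 1.20 (SE 0.17, adjusted p = 3.22e-05) and 1.34 (SE 0.17, adjusted p = 8.1e-06). *Il1rap*, the co-receptor shared by the IL-1, IL-33 and IL-36 receptors, was at 223 and 226, then 382, 360 and 276, then 813, 579 and 852 in PKM2fl/fl. Its PKM2-/- values were 314 and 246, then 317, 353 and 284, then 1079, 1170 and 1346. It rose by 1.13 (SE 0.16, adjusted p = 4.83e-05) and 1.91 (SE 0.16, adjusted p = 3.56e-07). In PKM2fl/fl it fell short of 2-fold with total-read scaling, at 0.95, and without sham replicate 3, at 0.99.

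*Il1r2*, the decoy receptor, was at 17.3 and 34.5 at baseline, 94.0, 117 and 33.3 after sham surgery and 320, 176 and 588 after MI in PKM2fl/fl. In PKM2-/- it was at 14.0 and 18.3, then 148, 325 and 125, then 2385, 1808 and 1985. MI differed from sham by 2.15 (SE 0.48, adjusted p = 0.00173) in PKM2fl/fl and 3.48 (SE 0.48, adjusted p = 2.11e-05) in PKM2-/-.

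*Il18r1*, the binding chain of the IL-18 receptor, was at 9.42 and 9.29, then 21.2, 31.8 and 31.4, then 57.2, 41.8 and 87.8 in PKM2fl/fl, and at 15.2 and 11.0, then 6.43, 20.9 and 23.7, then 44.6, 65.4 and 107 in PKM2-/-. Its log2 fold change with MI was 1.08 (SE 0.45, adjusted p = 0.0574) in PKM2fl/fl and 2.11 (SE 0.45, adjusted p = 0.00088) in PKM2-/-. With edgeR the PKM2fl/fl value was 1.15 (adjusted p = 0.0237) and with DESeq2 1.16 (adjusted p = 0.0184), both past the threshold, as it was in a fit of those groups only (adjusted p = 0.0292) and without MI replicate 2 (1.33, adjusted p = 0.0382).

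**Figure D1:**
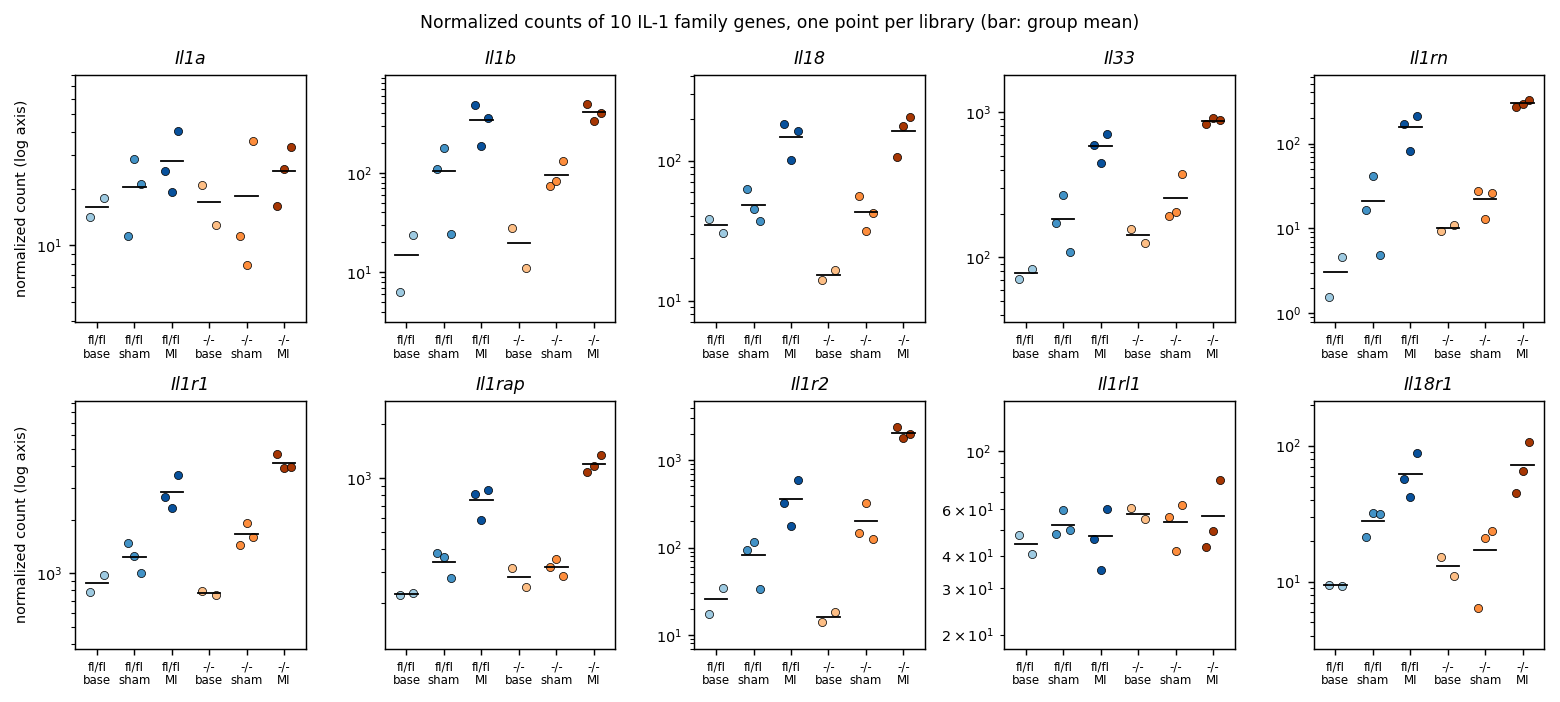
Normalized counts (log axis, with its own range in each panel) of the 10 genes in the 6 groups, with a point for each library and a bar at the group mean. *Il1rl1* stays between 35.4 and 77.9 throughout, whereas *Il1r2* in PKM2-/- MI libraries (1808 to 2385) is above its values in the 13 other libraries.

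**Figure D2:**
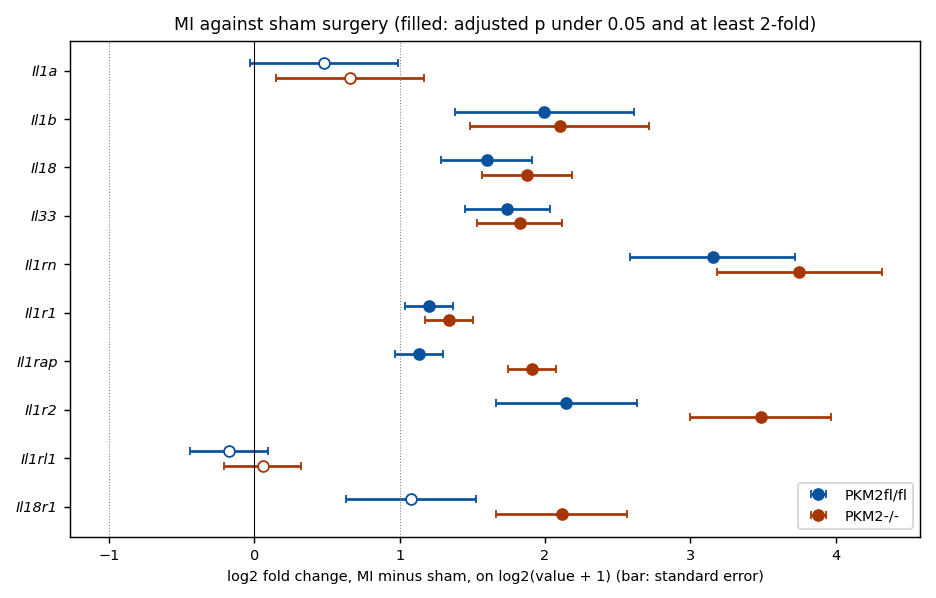
Log2 fold change (horizontal axis) of MI against sham surgery for each gene in PKM2fl/fl (blue) and PKM2-/- (brown), with standard errors and filled points for called genes. *Il1rn* has the largest value in both genotypes (3.15 and 3.75), and *Il1a* and *Il1rl1* are open in both.

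Per kilobase of the canonical transcript, *Il1r1* had the highest mean level of the 10 genes in every group but PKM2-/- MI. In PKM2fl/fl baseline libraries it was at 149 normalized counts per kb, followed by *Il1rap* at 48.0, and neither overlapped with its neighbour in the order. *Il18*, *Il33*, *Il1r2*, *Il1b* and *Il1rl1* followed at 25.4 to 8.33, each overlapping with the next, then *Il1a* at 4.69, *Il18r1* at 2.17 and *Il1rn* at 1.26. In PKM2fl/fl MI libraries the order was *Il1r1* (485), *Il1r2* (255), *Il1b* (252), *Il33* (173), *Il1rap* (160), *Il18* (110) and *Il1rn* (62.8), with each range overlapping the next, and then, below a gap, *Il18r1* (14.5), *Il1rl1* (8.93) and *Il1a* (8.22). In PKM2-/- MI libraries *Il1r2* came first at 1451 per kb (1274 to 1681), above *Il1r1* at 708 (663 to 789), and *Il1b* followed at 300.2. These orders are on a level scale and are descriptions.

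Genotype differences were examined within each treatment. After MI, *Il1r2* was the 1 member called higher in PKM2-/- (0.156% of all genes tested were), and 0 members were called lower (0.258%). Its log2 fold change was 2.67 (SE 0.48, adjusted p = 0.0289), and the lowest PKM2-/- MI library, at 1808, was above the highest PKM2fl/fl MI library, at 588. The call rested on the pooled spread. The fold change stayed between 2.23 and 3.10 when any 1 of the 6 MI libraries was left out, but the adjusted p was 0.062 to 0.116 without any but PKM2fl/fl MI replicate 3 (0.00105 without that library) and 0.0874 in a fit of the MI libraries alone. With edgeR the adjusted p was 0.0284 and with DESeq2 0.00102.

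*Il1rap* was 0.69 higher in PKM2-/- after MI (SE 0.16, adjusted p = 0.0571) and *Il1r1* 0.56 higher (SE 0.17, adjusted p = 0.105), neither of which passed the test. DESeq2 gave *Il1rap* at 0.68 (adjusted p = 0.00596) and *Il1r1* at 0.54 (adjusted p = 0.0455), both under 2-fold, and edgeR gave adjusted p of 0.0552 and 0.118. With *Il1rn* and *Il33*, these made 5 members with every PKM2-/- MI library above every PKM2fl/fl MI library, as in 10.7% of all genes, and no member was separate in the other direction (8.26%). *Il1b* at 333 to 489 in PKM2-/- and 189 to 478 in PKM2fl/fl overlapped, as did *Il18*, *Il18r1*, *Il1a* and *Il1rl1*. The members' median log2 difference was 0.45, against -0.0035 over all genes.

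Whether the response to MI itself differed between genotypes was tested by the interaction of genotype and MI. None of the 10 members was called by limma (0% of all genes were), and 1 had an unadjusted p under 0.05 (8.28% of all genes). DESeq2 and edgeR also called 0. That member was *Il1rap*, at 0.78 (SE 0.23, unadjusted p = 0.0043, adjusted p = 0.430). For *Il1r2* the interaction was 1.34 (SE 0.68, adjusted p = 0.637). The larger genotype difference of *Il1r2* after MI than after sham surgery was therefore not past the threshold.

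After sham surgery, limma called 0 members between genotypes (0.00486% of all genes were called higher and 0% lower), with edgeR and DESeq2 also at 0, and 2 had an unadjusted p under 0.05 (9.95% of all genes). *Il1r2* was 1.33 higher in PKM2-/- (SE 0.48, unadjusted p = 0.0147, adjusted p = 0.352), with 125 to 325 against 33.3 to 117, and was the 1 member whose sham libraries were separate and higher (8.27% of all genes). It was 0.79 higher without PKM2fl/fl sham replicate 3. *Il1r1* was 0.43 higher (SE 0.17, unadjusted p = 0.0217, adjusted p = 0.398). At baseline 0 members were called by any of the 3 tools (0.00972% of all genes were by limma), and 3 had an unadjusted p under 0.05 (3.64% of all genes). *Il18* was 1.12 lower on the log2 scale in PKM2-/- (log2 fold change -1.12, SE 0.38, unadjusted p = 0.00988, adjusted p = 1), at 14.0 and 16.5 against 38.5 and 30.5, on 9 to 49 reads. At baseline 5 members were separate and higher in PKM2-/- (17.7% of all genes) and *Il18* was separate and lower (17.2%). *Il33* was 0.86 higher (SE 0.36, unadjusted p = 0.0296, adjusted p = 1) and *Il1rn* 1.55 higher (SE 0.70, unadjusted p = 0.0419, adjusted p = 1).

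**Figure D3:**
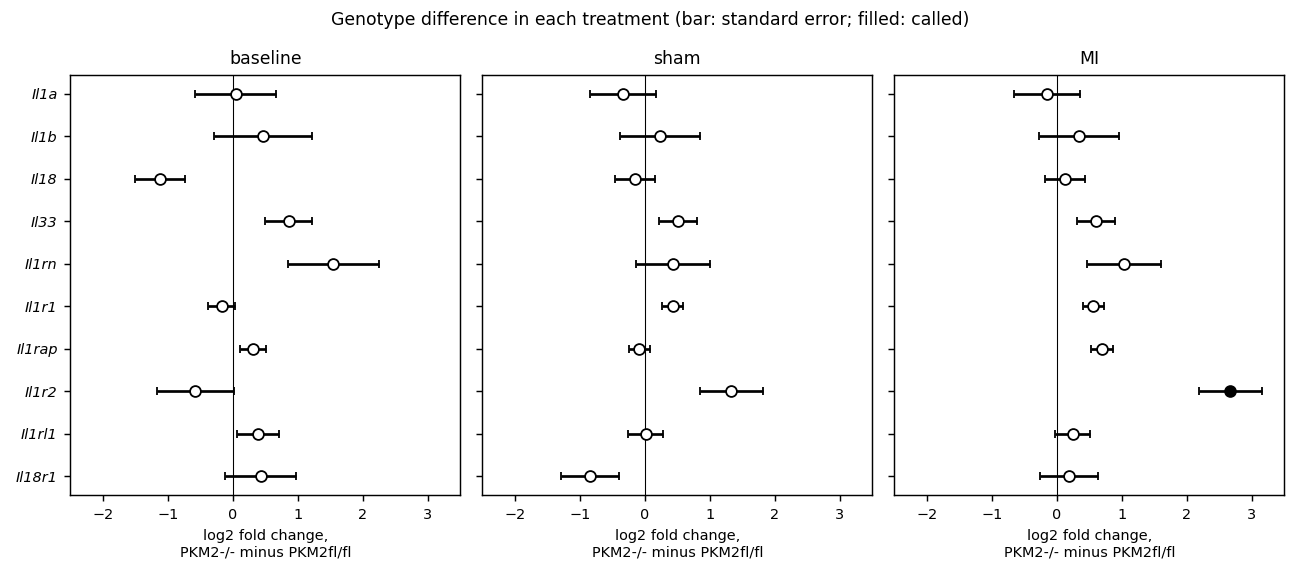
Log2 difference of PKM2-/- from PKM2fl/fl (horizontal axis) for each gene at baseline, after sham surgery and after MI, with standard errors and a filled point where the gene was called. *Il1r2* after MI, at 2.67, is the filled point.

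The operation without infarction was compared with unoperated hearts of the same genotype. In PKM2-/-, 3 members were called higher after sham surgery than at baseline (2.06% of all genes tested) and 0 lower (0.608%). They were *Il1r2* by 3.43 (SE 0.54, adjusted p = 0.00289), *Il18* by 1.41 (SE 0.35, adjusted p = 0.0298) and *Il1r1* by 1.08 (SE 0.19, adjusted p = 0.00493). Every sham library was above every baseline library for 6 members (18.4% of all genes). In the same comparison all 6 neutrophil markers tested were called higher, with a median of 3.40 and sums of 136 and 174 at baseline and 1066 to 1339 after sham surgery, as were 2 of 8 monocyte and macrophage markers. The part of these cells in the members' values was not tested. Without PKM2-/- baseline replicate 2, 1 member was called. The *Il1r1* call was lost without that library (1.05, adjusted p = 0.0511) and, at 0.97, fell under 2-fold without PKM2-/- sham replicate 2. The *Il18* call was lost with edgeR (1.49, adjusted p = 0.0871), in a fit of the 5 libraries alone (adjusted p = 0.106) and without any 1 of 4 of the 5 libraries (adjusted p 0.0555 to 0.174). *Il1b* was 2.33 higher (SE 0.69, adjusted p = 0.0648), which passed with total reads as the scaling (2.53, adjusted p = 0.00073) and in a fit of the 5 libraries alone (adjusted p = 0.0284), and *Il33* was 0.79 higher (SE 0.33, adjusted p = 0.192).

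In PKM2fl/fl, limma called 0 members between sham and baseline (0.16% of all genes were called higher and 0.00972% lower), with 7 at an unadjusted p under 0.05 (8.81% of all genes), and every sham library was above every baseline library for 7 members (17.4%). edgeR called 0 and DESeq2 called 3, which were *Il1b* (2.78, adjusted p = 0.0255), *Il1rn* (2.65, adjusted p = 0.0281) and *Il33* (1.24, adjusted p = 0.0249). With limma these were at 2.57 (SE 0.69, adjusted p = 0.155), 2.10 (SE 0.64, adjusted p = 0.232) and 1.14 (SE 0.33, adjusted p = 0.189). With total reads as the scaling *Il1b* was called, at 2.55 (adjusted p = 0.00325). Of 6 neutrophil markers 0 were called and 6 had an unadjusted p under 0.05, with a median of 2.93. PKM2fl/fl sham replicate 3 had the lowest sham value of *Il1b*, *Il1rn*, *Il1r1*, *Il1r2*, *Il1rap*, *Il18* and *Il33* in that group. Its summed neutrophil markers were 231 against 1360 and 1381 in the other 2. Without it, 3 members were called by limma: *Il1b* at 3.40, *Il1rn* at 2.83 and *Il33* at 1.47. The part of these cells in the result was not tested.

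The difference in the sham response between genotypes was examined after the values were seen. It was called for 0 members by limma (0% of all genes), edgeR or DESeq2, with 2 at an unadjusted p under 0.05 (6.29% of all genes), *Il1r2* at 1.91 (SE 0.76, unadjusted p = 0.0243, adjusted p = 0.704) and *Il1r1* at 0.60 (SE 0.26, unadjusted p = 0.0381, adjusted p = 0.761).

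Ratios of reads within a library do not depend on the scaling. Across 8 ratios, 32 comparisons between groups of 3 were made by a two-sided exact permutation test, which cannot give a p below 0.1, and the smallest adjusted p was 0.229. *Il1r2* reads per *Il1r1* read, a measure of decoy against signalling receptor transcript, were 0.0222 and 0.0353 at baseline, 0.0640, 0.0943 and 0.0333 after sham surgery and 0.119, 0.0754 and 0.166 after MI in PKM2fl/fl. In PKM2-/- they were 0.0176 and 0.0243, then 0.103, 0.169 and 0.0779, then 0.514, 0.463 and 0.502. After MI the geometric means were 0.492 and 0.114, a ratio of 4.31 (exact permutation p = 0.1), and the genotypes did not overlap.

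*Il1rn* reads per *Il1b* read, antagonist against agonist, were 0.149, 0.229 and 0.200 after sham surgery and 0.359, 0.432 and 0.596 after MI in PKM2fl/fl, and 0.370, 0.159 and 0.197, then 0.557, 0.874 and 0.812 in PKM2-/-. All 3 MI libraries were above all 3 sham libraries in each genotype, by 2.39 and 3.25 times (exact permutation p = 0.1 each), and the genotypes overlapped after MI (p = 0.2, exact permutation). *Il18bp* encodes the soluble IL-18 binding protein and was chosen after its values were seen. Its reads per *Il18* read were lower in MI than in sham libraries of both genotypes, at 1.46, 2.43 and 1.20 against 3.48, 3.93 and 8.23 in PKM2fl/fl and 1.68, 1.03 and 0.874 against 5.23, 5.71 and 6.36 in PKM2-/- (exact permutation p = 0.1 each). *Il18bp* itself was at 121 to 302 in all libraries.

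Because neutrophils are known to carry IL-1R2, *Il1r2* was also set against summed reads of 8 neutrophil markers. Of these markers *Csf3r*, the receptor for granulocyte colony-stimulating factor, was at 788 to 1270 in PKM2fl/fl and 1582 to 2124 in PKM2-/- MI libraries. It had the highest value of the 8 markers in every MI library, so their sum leans on it. *Ly6g* and *Ngp* were under 25 in every library and at 0 in several. Of the 6 neutrophil markers tested, 0 were called between genotypes after MI (0.156% of all genes were called higher and 0.258% lower). An unadjusted p under 0.05 was found for 4 of the 6 (17% of all genes). The log2 differences of the 6 ranged from 0.77, for *Csf3r*, to 1.78, with a median of 1.44. *Il1r2* reads per neutrophil marker read were 0.136, 0.132 and 0.255 in PKM2fl/fl and 0.552, 0.478 and 0.404 in PKM2-/- MI libraries, a ratio of 2.86 in which the genotypes did not overlap (exact permutation p = 0.1). In contrast, *Il1b* reads per neutrophil marker read were lower in PKM2-/- after MI, at 0.113, 0.0879 and 0.0813 against 0.203, 0.141 and 0.155 (exact permutation p = 0.1). *Il1b* per read of 8 monocyte and macrophage markers was 0.0218, 0.00984 and 0.0117 in PKM2fl/fl and 0.0207, 0.0117 and 0.0147 in PKM2-/- MI libraries, with overlap (exact permutation p = 0.8). *Il1rn* per read of the same markers was 0.00783, 0.00425 and 0.00696 against 0.0116, 0.0102 and 0.0120, without overlap (exact permutation p = 0.1). Summed neutrophil markers were themselves higher in PKM2-/- than in PKM2fl/fl MI libraries. A ratio of reads in bulk tissue does not separate cell number from RNA per cell. The part of neutrophils in the *Il1r2* difference was not tested.

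**Figure D4:**
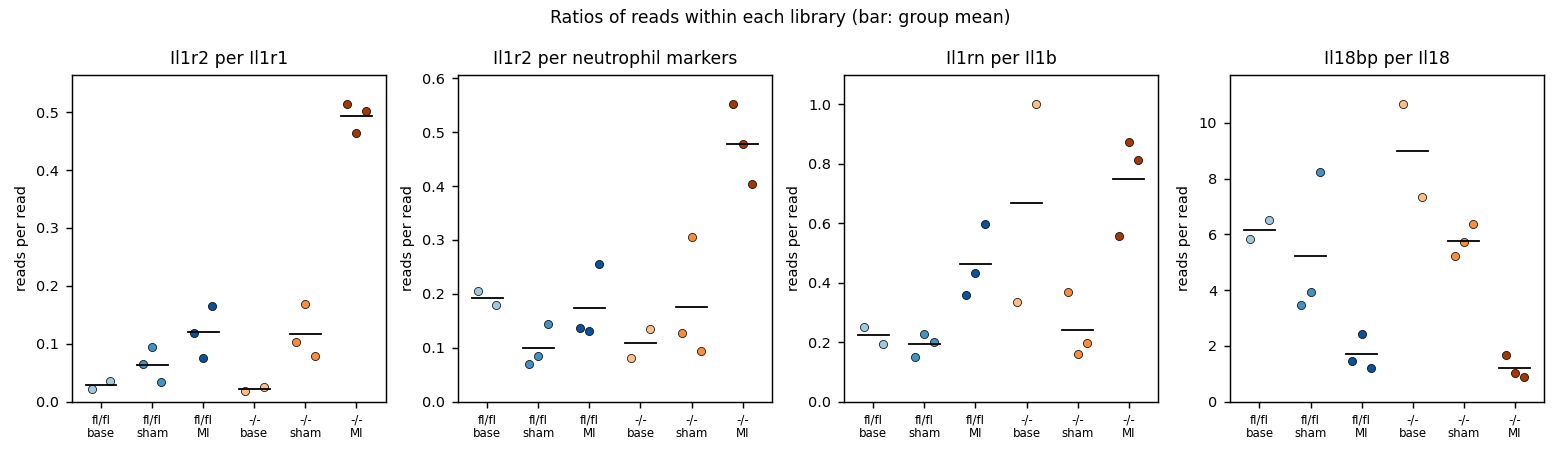
Reads of a gene per read of another gene or of the summed neutrophil markers (vertical axes, starting at 0) in each library of the 6 groups, with bars at group means. *Il1r2* per *Il1r1* is 0.463 to 0.514 in PKM2-/- MI libraries and at most 0.169 in the others.

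Along the receptor cluster on chromosome 1 the MI response was uneven. *Il1rl2* was called higher in both genotypes, by 1.60 (SE 0.19, adjusted p = 7.8e-06) and 1.56 (SE 0.19, adjusted p = 5.7e-06), and *Il18rap* by 1.85 (SE 0.35, adjusted p = 0.00047) and 2.90 (SE 0.35, adjusted p = 6.5e-06). *Il1rl1* lies between *Il1rl2* and *Il18r1* and was the 1 gene of the 6 that was called in neither genotype. Between genotypes after MI, *Il18rap* was at 720, 377 and 338 in PKM2-/- and 224, 125 and 261 in PKM2fl/fl, a log2 difference of 1.21 (SE 0.35, adjusted p = 0.10), which did not pass the test.

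**Figure D5:**
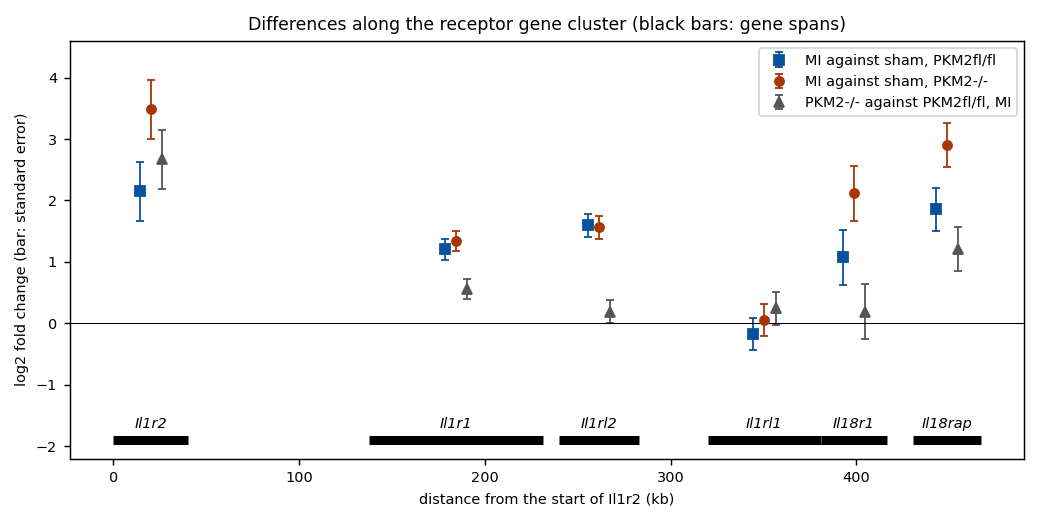
Log2 fold changes (vertical axis) of the 6 receptor genes of chromosome 1, placed by distance in kb from the start of *Il1r2*, for MI against sham in each genotype and for PKM2-/- against PKM2fl/fl after MI, with standard errors. *Il1rl1* is at -0.17 and 0.057 with MI, between *Il1rl2* (1.60 and 1.56 with MI) and *Il18r1* (1.08 and 2.11).

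Across the 16 libraries, on log2(value + 1), *Il1rn* and *Il33* had the highest Pearson correlation of the 45 member pairs (r = 0.981), followed by *Il1r1* and *Il1r2* (r = 0.975). After the group means were removed these were 0.796 and 0.873. The 5 tested genes most like *Il1b* were *Csf3r* (r = 0.976), *Mmp8*, *Tnfaip6*, *Clec4d* and *Osmr* (r = 0.961), and those most like *Il1r1* were *Abi1* (r = 0.991), *Il4ra*, *Nfkbiz*, *S100a10* and *Nup98*. *Il33* was most like *Tfec* (r = 0.985), *Clec4n*, *Prr13*, *Soat2* and *Mmp9*. For *Il1rl1* the closest genes were *Gm38262* (r = 0.801), *Trib3*, *Gm43621*, *Grid1* and *Rps13*. The points share the difference between MI and other libraries, so these values describe the pattern over groups.

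The rest of the pathway was followed in 4 lists. Of 55 genes tested, 22 were called higher in MI against sham in PKM2fl/fl (12.4% of all genes) and 24 in PKM2-/- (14.5%). In both genotypes 0 were called lower (11.1% and 14.3% of all genes). In the list of other family members, 3 of 7 tested were called higher in PKM2fl/fl and 2 in PKM2-/-, and 4 of the 11 listed were below the filter. Besides *Il1rl2* and *Il18rap*, these included *Il1rapl1*, a relative of *Il1rap*, at 1.32 (SE 0.46, adjusted p = 0.025) in PKM2fl/fl and 0.47 (SE 0.46, adjusted p = 0.39) in PKM2-/-. The median of the list was 1.32 and 0.47.

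Among genes of cytokine processing, 5 of 9 tested were called higher in PKM2fl/fl and 6 in PKM2-/-, with medians of 1.14 and 1.36. With no limit on fold, 7 and 9 were past the adjusted p, all of them higher. The inflammasome sensor *Nlrp1b* was higher by 2.46 (SE 0.25, adjusted p = 2.2e-06) and 2.44 (SE 0.25, adjusted p = 1.5e-06), and the DNA sensor *Aim2* by 1.72 (SE 0.16, adjusted p = 1e-06) and 1.87 (SE 0.16, adjusted p = 3.3e-07). *Casp8*, a caspase that can cleave the IL-1 beta precursor, was higher by 1.52 and 1.36 (SE 0.14 each, adjusted p = 1.1e-06 and 1.9e-06). For receptor signalling genes the shift was small, with medians of 0.19 and 0.20. In each genotype 1 of 18 was called higher, against 12.4% and 14.5% of all genes. That gene was *Irak4*, the kinase that joins MyD88, at 1.21 (SE 0.12, adjusted p = 1.3e-06) and 1.40 (SE 0.12, adjusted p = 2.7e-07). *Myd88*, the adaptor, was 0.89 higher (SE 0.12, adjusted p = 2.9e-05) and 0.85 higher (SE 0.12, adjusted p = 2.7e-05). *Ikbkb*, the NF-kB activating kinase, was 0.45 (SE 0.09, adjusted p = 0.00051) and 0.38 (SE 0.09, adjusted p = 0.0015) higher. These values were past the adjusted p but under 2-fold. With no limit on fold, 4 of the 18 signalling genes were past the adjusted p and higher in PKM2fl/fl, and 3 lower. In PKM2-/- 9 were higher and 4 lower.

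Of 21 NF-kB and IL-1 response genes tested, 13 were called higher in PKM2fl/fl and 15 in PKM2-/-, with medians of 1.34 and 1.81. *Timp1*, a metalloproteinase inhibitor, was higher by 4.57 (SE 0.48, adjusted p = 2.8e-06) and 4.51 (SE 0.48, adjusted p = 2e-06), and the monocyte attractant *Ccl2* by 3.82 (SE 0.54, adjusted p = 3.6e-05) and 3.81 (SE 0.54, adjusted p = 2.4e-05). *Nfkbiz*, an inducible NF-kB cofactor, was higher by 1.34 (SE 0.17, adjusted p = 1.2e-05) and 1.18 (SE 0.17, adjusted p = 2.5e-05). Between genotypes, 0 of the 55 genes were called by limma at baseline, after sham surgery, after MI or in the interaction with MI. Those with an unadjusted p under 0.05 were 2, 13, 11 and 3, against 3.64%, 9.95%, 17% and 8.28% of all genes. edgeR called 0 in each of these comparisons, and DESeq2 called 2 after MI (*Cxcl1* and *Il18rap*) and 0 in the others.

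The libraries also bear on which cells could carry these transcripts, without telling them apart. Of the monocyte and macrophage markers, 8 of 8 were called higher with MI in both genotypes, as were 3 of 6 tested neutrophil markers in each (12.4% and 14.5% of all genes). Of the mast cell markers tested, 3 of 5 were called lower in PKM2fl/fl and 1 in PKM2-/- (11.1% and 14.3% of all genes), with sums of 36.6 to 133 over the libraries. Of 9 T, NK and type 2 lymphoid markers, only *Cd4* (11.2 to 30.6), *Foxp3* (95.5 to 144) and *Gata3* (5.67 to 40.3) were tested, and 0 of these 3 were called. *Cd3e*, *Cd3d* and *Cd3g*, at 0 to 15.5, were below the filter. So were *Cd8a* (2.33 to 11.8) and the NK markers *Ncr1* (0 to 23.6) and *Klrb1c* (1.31 to 15.2). No NK marker was therefore tested. *Il1rl1*, which mast cells and type 2 lymphoid cells are known to express, was called in no comparison. Fibroblast markers were called higher in 2 of 6 in each genotype and endothelial markers in 0 of 6. With no limit on fold, 4 fibroblast markers were past the adjusted p and higher, and 1 lower, in each genotype. Of the endothelial markers, 2 were higher and 1 lower in PKM2fl/fl, and 1 was higher and 2 lower in PKM2-/-. Of the atrial markers *Sln*, *Myl4* and *Myl7*, 0 of 3 were called in any comparison, but their levels were uneven between libraries. Their sums in PKM2fl/fl were 138 and 120 at baseline and 1265, 313 and 1277 after sham surgery. There all 3 had an unadjusted p under 0.05 (8.81% of all genes), with log2 differences of 5.21, 2.03 and 3.96. In PKM2-/- the sums were 411 and 207, then 1487, 794 and 353, and *Sln* was 3.49 higher than in PKM2fl/fl at baseline (unadjusted p = 0.0247, adjusted p = 1). After MI they were 142 to 848 in both genotypes. The part of these cells in the members' values was not tested.

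For 6 members, another annotated gene overlaps the span, and the counting is not stated to use strand, so reads of the partners cannot be told apart where they overlap. *Gm16894*, a long noncoding RNA that overlaps 1160 bases of *Il1r2*, was at 9.32 to 133 and had group means of 32.7 in PKM2fl/fl and 122 in PKM2-/- after MI. *Il1bos*, which overlaps 1263 bases of *Il1b*, was at 0 to 85.0, and *Gm20319*, which overlaps 15447 bases of *Il1rap*, at 45.8 to 415. *Gm14023* overlaps *Il1a* (10.4 to 42.1), and *Bco2* (4.66 to 49.5) and *Tex12* (0 to 15.9) overlap *Il18*. The overlap of *Il33* with *Gm41832* was not analysed here. *Il1r1*, *Il1rn*, *Il1rl1* and *Il18r1* have no overlapping gene in this annotation.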

How the data were processed

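Left ventricular RNA was depleted of rRNA and sequenced as paired ends. Per the labels and methods, the authors used PRINSEQ for trimming, HISAT2 for alignment to mm10 and featureCounts for counting, and deposited a DESeq2-normalized signal per gene and library, that is, counts divided by a size factor. Versions, strand and multi-mapping settings are not given in the sources used here. The deposited table also holds the authors' own comparison columns (mean, log2 fold change, its standard error, a Wald score, and p-values before and after adjustment), which were not used. Each library's values were whole multiples of a step (100% whole within 0.01 reads), so reads were recovered. Groups were read from the labels. 0 columns lacked a sample.

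limma 3.58.1 (R 4.3.3, trend) was fitted to log2(value + 1) over all 16 libraries in 6 group means, for genes with a mean of at least 10. edgeR 4.0.16 and DESeq2 1.42.0 on the recovered reads were alternatives, as were other scalings, filters, a pseudocount of 0.1, a replicate block and leaving out each library. The models were also run on counts simulated with a fixed dispersion for all genes. The simulated spread was smaller than that of members such as *Il1b*, with an SD of 77.7 at a mean of 105 in PKM2fl/fl sham libraries. That run therefore does not gauge the calls of such members. The members, gene lists and tests were chosen with earlier results of these data known. The genotype by sham surgery interaction, the ratios and *Il18bp* were chosen after values were seen, and the NF-kB pattern replaced a longer, stricter one after the matches of the longer one had been seen. Every member was named, and of each other list at most 3 genes, those with the smallest p in MI against sham in PKM2fl/fl. *Ly6g*, *Ngp*, *Cd3e*, *Cd3d*, *Cd3g*, *Cd8a*, *Ncr1*, *Klrb1c* and *Cxcl1* fall outside that rule and were named after their values were seen. The most alike genes were the 5 with the highest Pearson r over the libraries. Every library is a separate mouse, and p-values measure the spread between mice. Levels per kb used canonical transcript lengths from GENCODE M39. Positions and promoters came from RefSeq on GRCm38.p6.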

Additional observations from a re-analysis of the deposited data

How the results depend on the processing

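Of 364 alternative values of the counts of called genes, 350 stayed within 1.5 times the count in the report. The 8 members called after MI in PKM2-/- became 5 of 6 tested when at least 10 was required in every library. The 1 member called between genotypes after MI became 0 in a fit of those groups only, and 0 to 1 when 1 library was left out. In sham against baseline in PKM2fl/fl, 0 became 1 with total reads as the scaling, 3 with DESeq2, and 0 to 3 when 1 library was left out, and in PKM2-/- 3 became 1 to 3 when 1 library was left out. With no limit on fold, the other pathway genes lower after MI went from 0 to 4 in PKM2fl/fl and from 0 to 5 in PKM2-/-, and those higher in PKM2-/- from 24 to 37, which follows from the wider definition. For the other changes the cause was not tested.

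Of 662 alternative values of the 45 member fold changes given, 625 kept their direction and their side of the threshold, 19 lost and 15 gained a call, and 3 changed sign. All 3 were *Il1rl1* in MI against sham. When 1 library was left out it ranged from -0.36 to 0.015 in PKM2fl/fl, positive without MI replicate 2, and from -0.19 to 0.23 in PKM2-/-, negative without sham replicate 2 (-0.11) or MI replicate 3 (-0.19). Of the 45 pairs of member and comparison whose fold change the text does not give, 27 changed sign under an alternative and 0 were called under any.

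Libraries with the same replicate number did not deviate together (r of -0.0575 to 0.126), each comes from its own mouse, and 2 of 8 correlated best with their own number. With the replicate block, the members called higher were 8 in PKM2fl/fl and 8 in PKM2-/- in MI against sham, 1 between genotypes after MI and 2 in sham against baseline in PKM2-/-. The block added *Il18r1* in PKM2fl/fl (adjusted p = 0.0295) and lost *Il18* in sham against baseline in PKM2-/- (adjusted p = 0.0511).

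Groups hold 2 or 3 libraries, and *Il1a*, *Il1rn* and *Il18r1* had fewer than 50 reads in most baseline and sham libraries, which limits the precision of their values. The members with overlapping genes rest on a counting whose strand setting is not given.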
